A study of Macaca mulatta with 12 samples.

Results

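Genes were compared between a homozygous and a heterozygous parthenogenetic embryonic stem (ES) cell line of the rhesus macaque, ORMES-9 and rPESC-2. All 6 arrays labelled with these lines entered the comparison, 3 per line (replicates A, B and C), out of 12 arrays in the series. All 52766 probe sets that are not controls were tested, and 12993 named genes were read through the brightest probe set of each. ORMES-9 is described as homozygous, with a single maternal allele at each locus, and was sampled at passages 13, 14 and 16. rPESC-2 is described as heterozygous, with both alleles of its mother, and was sampled at passages 16, 10 and 16. The labels are at odds on ORMES-9: its source entry names an in vitro fertilised (IVF) blastocyst, while its description and the design text of the series name a parthenote. ORMES-22, a biparental line from an IVF blastocyst sampled at passages 18, 21 and 19, and skin fibroblasts of an adult male macaque give reference levels here. All 3 ES lines are labelled female and were grown on mouse embryonic fibroblast feeders, and colonies judged undifferentiated were picked for RNA. Each ES group is 1 line, so the p-values measure the spread between replicates within groups. They do not measure the spread between animals or between homozygous and heterozygous lines in general. The spread is 1 estimate per probe set shared by all groups, so ORMES-22 and fibroblast arrays also set the SEs and intervals.

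A parthenogenetic embryo arises from an activated egg without sperm and carries maternal chromosomes only. Imprinted genes are expressed from the copy inherited from 1 parent, so those read from the paternal copy are usually silent or low in parthenogenetic cells, and those read from the maternal copy are usually active. When the maternal copies are identical along their whole length the cells are homozygous, and a recessive or weak allele then has no second form beside it. When recombination and retention of both maternal homologues keep different copies, the cells stay heterozygous over part of the genome.

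Both lines carried the markers of pluripotent cells. POU5F1, a core pluripotency factor, averaged 12.91 on the log2 signal scale in ORMES-9 and 12.87 in rPESC-2, against 4.90 in fibroblasts. SOX2, its partner, averaged 11.84 and 12.09 against 3.79, and DNMT3B, a DNA methyltransferase of early embryonic cells, 12.37 and 12.46 against 4.90. The NANOG probe set did not separate the cell types, with 8.25 and 7.95 in the lines and 9.53 in fibroblasts. Of the fibroblast markers, LUM was near background in both lines, with 3.91 and 3.70 against 11.49 in fibroblasts. The collagen genes COL1A1 and COL1A2 were measurable in both ES lines, with differences of -0.08 for each gene, and the probe sets of THY1 and DCN did not separate ES cells from fibroblasts. The endoderm markers SOX17, GATA6 and FOXA2 were well above background in both lines (7.55 and 8.10, 8.07 and 8.72, 7.65 and 7.23), while ORMES-22 averaged 5.18, 5.93 and 5.33. None of these 3 genes was called between the parthenogenetic lines.

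Arrays of the same line resembled each other more closely than arrays of different lines. Pearson correlations between arrays across probe sets ran from 0.995 to 0.996 within ORMES-9, from 0.994 to 0.995 within rPESC-2 and from 0.984 to 0.988 between the lines. The median SD over the 3 arrays was 0.0961 in ORMES-9 and 0.110 in rPESC-2. A probe set was called when limma's moderated test gave a Benjamini-Hochberg adjusted p under 0.05 over all probe sets and the difference was at least 2-fold. By that rule 650 probe sets were called (1.23% of those tested), 287 higher in ORMES-9 (0.544%) and 363 lower (0.688%). At the level of genes 215 were called (1.65%), 101 higher in ORMES-9 (0.777%) and 114 lower (0.877%). The median difference over all genes, ORMES-9 minus rPESC-2, was 0.02. Among the called genes the median fold was 2.51 for those higher in ORMES-9 and 2.66 for those lower, and 14 and 23 of them reached 4-fold. In these bulk RNA samples, fewer cells expressing a gene and less RNA per cell cannot be told apart. Without rPESC-2 replicate B, 207 genes were called (1.59%), 106 higher and 101 lower. Of these, 181 had been called with the same sign in all arrays, which is 84.2% of the full list and 87.4% of the shorter one.

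**Figure D1:**
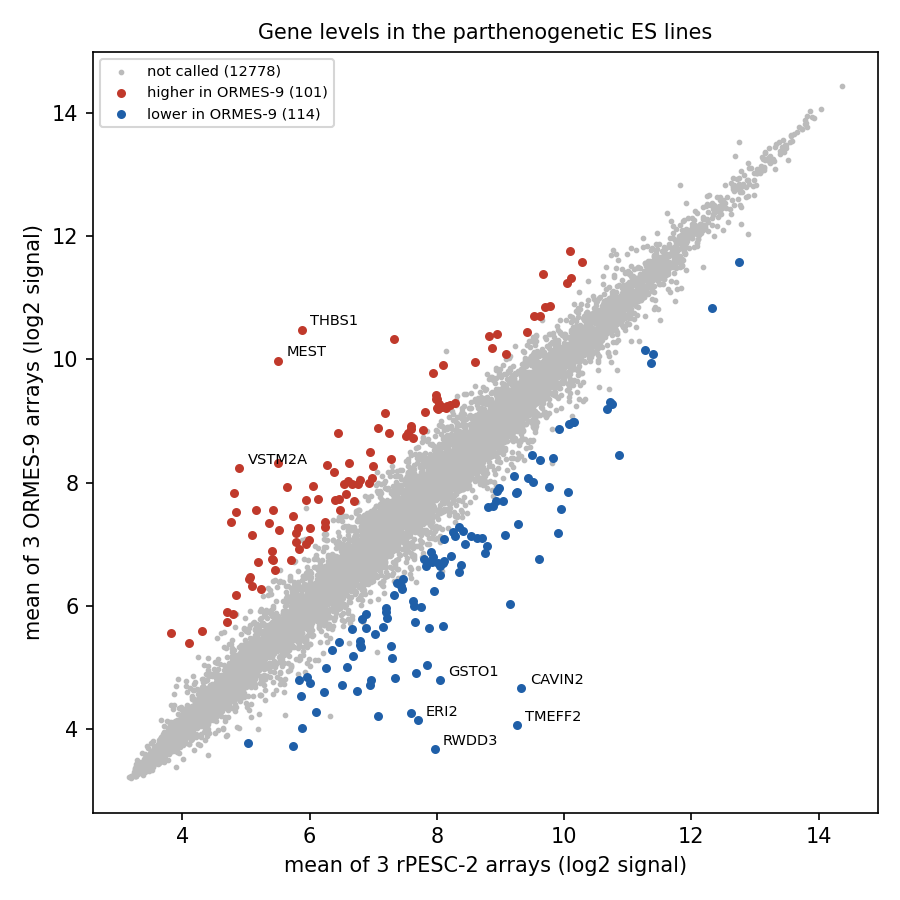
Mean log2 signal of 12993 genes in 3 rPESC-2 arrays (x axis) and 3 ORMES-9 arrays (y axis), 1 point per gene by its brightest probe set. The 101 genes called higher in ORMES-9 are red, the 114 called lower are blue and the rest are grey; most genes lie on the diagonal and the named genes are far from it.

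The largest differences of the whole array lay in probe sets that the array design names for the mitochondrial genome. The mitochondrial genome is inherited through the egg and encodes subunits of the respiratory chain with the ribosomal and transfer RNAs that translate them. The design holds 6 such probe sets, named MmuMitochon, and the probe annotation pairs none of them with a gene symbol. They were singled out after their values were seen. Of the 6, 4 were lower in ORMES-9 and 2 were not called.

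MmuMitochon.6 read 4.62, 4.43 and 4.38 in ORMES-9 and 13.04, 13.11 and 13.22 in rPESC-2. The ORMES-9 signal was thus close to 4.26, a level that 90% of the readings of 42 bacterial control probe sets stay under and that serves here as background, while rPESC-2, ORMES-22 (14.04) and fibroblasts (14.07) were near the top of the scale. The difference was -8.65 (standard error, SE, 0.08; adjusted p = 5.6e-14) and was the same without rPESC-2 replicate B. MmuMitochon.3 read 5.72, 5.69 and 6.20 against 13.86, 13.95 and 14.00, a difference of -8.07 (SE 0.12, adjusted p = 4.8e-12). MmuMitochon.10 read 6.41, 5.93 and 6.61 against 13.64, 13.63 and 13.95, a difference of -7.42 (SE 0.25, adjusted p = 7.9e-09). In all 3 the lines were far from overlapping, and ORMES-22 and fibroblasts averaged between 13.32 and 14.27 for MmuMitochon.3 and MmuMitochon.10. The remaining probe sets did not follow this size. MmuMitochon.4 was bright in both lines, with 13.16, 13.24 and 13.23 in ORMES-9 and 14.49, 14.56 and 14.46 in rPESC-2, and its difference of -1.29 (SE 0.07) passed the test at an adjusted p of 4.7e-07. MmuMitochon.12 averaged 12.82 in ORMES-9 and 12.39 in rPESC-2 (difference 0.43, SE 0.28, adjusted p = 0.53), and MmuMitochon.13 averaged 7.20 and 8.06 (difference -0.86, SE 0.32, adjusted p = 0.19). The arrays of the lines overlapped for MmuMitochon.12 and only just failed to overlap for MmuMitochon.13, with 7.74 as the highest ORMES-9 value and 7.80 as the lowest of rPESC-2. In the same ORMES-9 RNA, mitochondrial probe sets thus ranged from near background to the top of the scale. Whether these probe sets report the amount of transcript or the match of the probes to the mitochondrial sequence of each line was not tested.

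**Figure D2:**
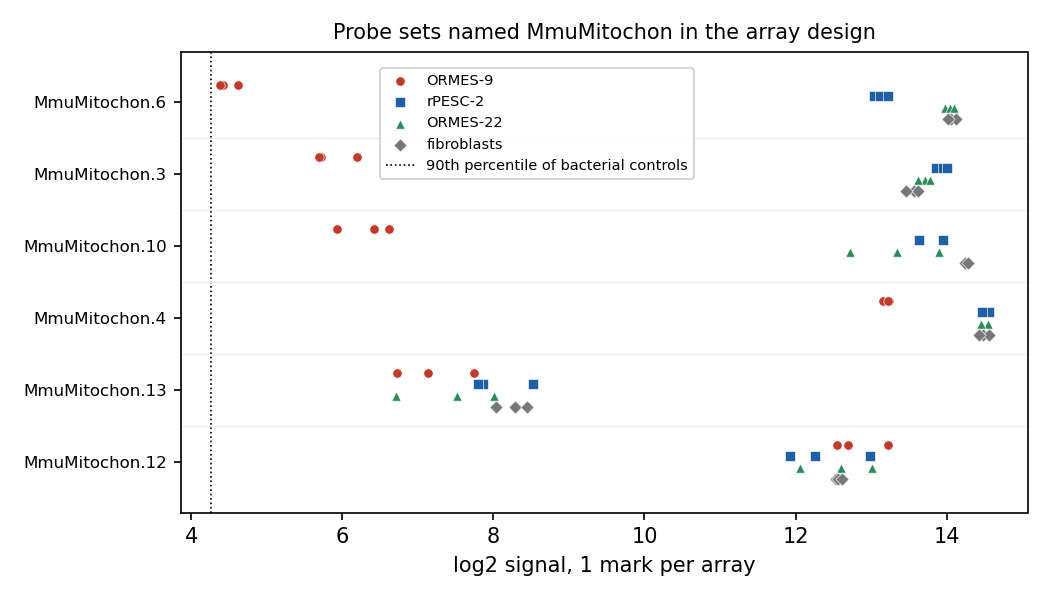
Log2 signal of the 6 probe sets named MmuMitochon in every array, with ORMES-9, rPESC-2, ORMES-22 and fibroblasts as separate marks and the dotted line at the background level of 4.26. ORMES-9 lies between 4.38 and 6.61 in the upper 3 probe sets, where the other groups lie above 12, and among the other groups in the bottom one.

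Among named genes, those with the largest rise in ORMES-9 were of mixed function. THBS1, which encodes the secreted matrix protein thrombospondin 1, read 9.80, 10.59 and 11.06 in ORMES-9 and 6.74, 5.73 and 5.15 in rPESC-2. Every ORMES-9 array was above every rPESC-2 array, and the difference of 4.61 (SE 0.43, adjusted p = 6.5e-05) corresponds to 24.4-fold. ORMES-22 averaged 10.98, so rPESC-2 was the low line of the 3. Of 4 other THBS1 probe sets, 2 were called in the same direction (3.55 and 1.77) and 2 were not called (-0.20 and -0.11). The probe set with 1.77 was not called without rPESC-2 replicate B (1.66, adjusted p = 0.12), and it kept its call in only 1 of the 6 fits that left out an array of these lines, that without ORMES-9 replicate A. THBS1 was the 1 gene called among 26 measured genes of the fibroblast and matrix list, whose median difference was -0.06; the mean level of the list ran from 7.77 to 8.15 in ORMES-9 and from 7.49 to 8.20 in rPESC-2, so its ranges overlapped.

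VSTM2A, a secreted immunoglobulin-domain protein, read 8.16, 8.56 and 8.02 in ORMES-9 and 5.21, 4.78 and 4.69 in rPESC-2. ORMES-22 was at the rPESC-2 level with 5.16, and the difference was 3.35 (SE 0.21, adjusted p = 1.9e-06), while 2 dimmer probe sets of the gene were not called (0.28 and 0.24). MECOM, a zinc finger transcription factor, read 7.98, 7.80 and 7.75 against 5.13, 4.39 and 4.91, a difference of 3.03 (SE 0.34, adjusted p = 0.00028). A second MECOM probe set gave 2.97, also called, and ORMES-22 averaged 7.41, nearer to ORMES-9. SPATS2L, which encodes a protein of stress granules and nucleoli, read 10.23, 10.41 and 10.34 against 7.45, 7.12 and 7.40 (difference 3.01, SE 0.29), and ORMES-22 stood at 10.62. EPHA1, an ephrin receptor tyrosine kinase, read 8.34, 8.25 and 8.39 against 5.87, 5.41 and 5.20. Its difference was 2.83 (SE 0.45, adjusted p = 0.003), and of 3 other EPHA1 probe sets 2 were called with 3.37 and 3.32 while the last gave 0.42. That last probe set was the brightest EPHA1 probe set in both lines (8.96 and 8.54) but averaged 4.90 in fibroblasts. The called ones averaged 12.49, 12.11 and 11.99 in fibroblasts. Whether all these probe sets read the same transcript was not tested.

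MEST was second in size and is described with the imprinted genes. The remaining 6 of the 12 largest increases had differences between 2.13 and 2.67, and in each the 3 ORMES-9 values lay above the 3 of rPESC-2. CAMKMT, a methyltransferase that modifies calmodulin, read 7.66, 7.38 and 7.51 against 4.94, 4.69 and 4.90 (difference 2.67, SE 0.12, adjusted p = 1.3e-07). SLC12A1, the sodium-potassium-chloride transporter known from the kidney, read 7.99, 7.99 and 7.81 against 5.71, 5.59 and 5.63 (difference 2.29, SE 0.07, adjusted p = 6.8e-09). FAM111A, a protease that acts at replication forks, was higher by 2.40, and PRKCH, a protein kinase C, by 2.13, with 2 further PRKCH probe sets called at 1.88 and 1.25, the latter not without ORMES-9 replicate B. For CAMKMT, SLC12A1, FAM111A and PRKCH the ORMES-22 mean (5.09, 6.12, 5.36 and 4.92) was nearer to rPESC-2. CRYGB, a lens crystallin gene, was higher by 2.60 and ZNF385B, a zinc finger gene, by 2.36; both had their lowest ORMES-9 value in replicate C (6.72 and 8.06).

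The genes with the largest fall in ORMES-9 included several at background there. TMEFF2, a transmembrane protein with follistatin-like domains, read 3.91, 3.96 and 4.34 in ORMES-9 and 9.45, 9.32 and 9.01 in rPESC-2. The difference of -5.19 (SE 0.49, adjusted p = 7.2e-05) was measured against ORMES-9 values at background. Its SE was widened by the ORMES-22 SD of 1.42, where the SDs were 0.23 in ORMES-9 and 0.22 in rPESC-2. Set against the background level itself, rPESC-2 was at least 32.0-fold higher. ORMES-22 averaged 7.74 and fibroblasts 8.81, and a second, dim TMEFF2 probe set gave -0.05. CAVIN2, a coat protein of caveolae, read 4.67, 4.91 and 4.42 against 9.71, 9.15 and 9.12, a difference of -4.66 (SE 0.21, adjusted p = 1.1e-07). A second CAVIN2 probe set was also lower, by -2.46. RWDD3, a regulator of SUMO conjugation, read 3.45, 3.87 and 3.72 against 7.93, 8.17 and 7.79 (difference -4.28, SE 0.16, adjusted p = 3.1e-08). ERI2, a putative exonuclease, read 4.40, 3.98 and 4.08 against 7.77, 7.51 and 7.82 (difference -3.54, SE 0.15, adjusted p = 7.2e-08). TMEFF2, RWDD3 and ERI2 thus had an ORMES-9 mean at or under background while rPESC-2, ORMES-22 and fibroblasts all stood at least 2 log2 units above it.

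ZNF22, a zinc finger gene, met the same rule but was not called. It read 4.27, 4.34 and 4.03 in ORMES-9 and 4.37, 8.75 and 5.83 in rPESC-2, so its rPESC-2 mean rested on replicate B, and its difference went from -2.10 (adjusted p = 0.18) to -0.89 without that array. In the opposite direction, 0 genes had an rPESC-2 mean at background with the other 3 groups 2 units above, when genes were read by their brightest probe set. Over all probe sets, 6 met the rule with ORMES-9 at background and 3 with rPESC-2 at background. An example of the latter is a probe set of ITPA, an enzyme that clears inosine triphosphate, with 8.95, 9.02 and 8.86 in ORMES-9 and 3.93, 4.23 and 4.13 in rPESC-2 (difference 4.85, adjusted p = 2.9e-10), named after its values were seen. The brightest ITPA probe set averaged 8.49 and 6.95, a difference of 1.55 that was also called (adjusted p = 6.2e-05). For TRIM4, an E3 ubiquitin ligase gene, the brightest probe set was at background in ORMES-9 (4.12, 4.46 and 4.05). It was above background in rPESC-2 (7.14, 7.06 and 7.03), while ORMES-22 averaged 5.86. That probe set was lower by -2.86 (adjusted p = 1.1e-07), and 2 other TRIM4 probe sets were not called (-0.19 and 0.24). The one with 0.24 averaged 5.24 in ORMES-9 and 4.99 in rPESC-2, above background in both lines.

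Several further decreases concerned enzymes and signalling proteins. GSTO1, a glutathione transferase, read 4.84, 4.70 and 4.87 in ORMES-9 and 7.74, 8.37 and 8.02 in rPESC-2 (difference -3.24, SE 0.16, adjusted p = 3.1e-07). ORMES-22 was also low for this gene, with 5.48. DUSP23, a small dual-specificity phosphatase, read 5.996, 6.02 and 6.11 against 9.11, 9.21 and 9.15 (difference -3.11, SE 0.12, adjusted p = 2.5e-08), with ORMES-22 at 8.71. NPTX2, a neuronal pentraxin, read 6.64, 6.84 and 6.79 against 9.62, 9.58 and 9.63 (difference -2.85, SE 0.13, adjusted p = 1.7e-07). DCBLD2, a neuropilin-like membrane receptor, fell by 3.32 with its second probe set at 0.30 and not called. CREB3L4, a membrane-bound transcription factor, fell by 2.79. KLHDC9, a kelch-domain gene, fell by 2.77, and ANXA10, a member of the annexin family, fell by 2.72. For each of these the arrays of the lines did not overlap, as was true of all 215 called genes. Over the whole array, 4003 of the 12993 genes (30.8%) were without overlap.

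**Figure D3:**
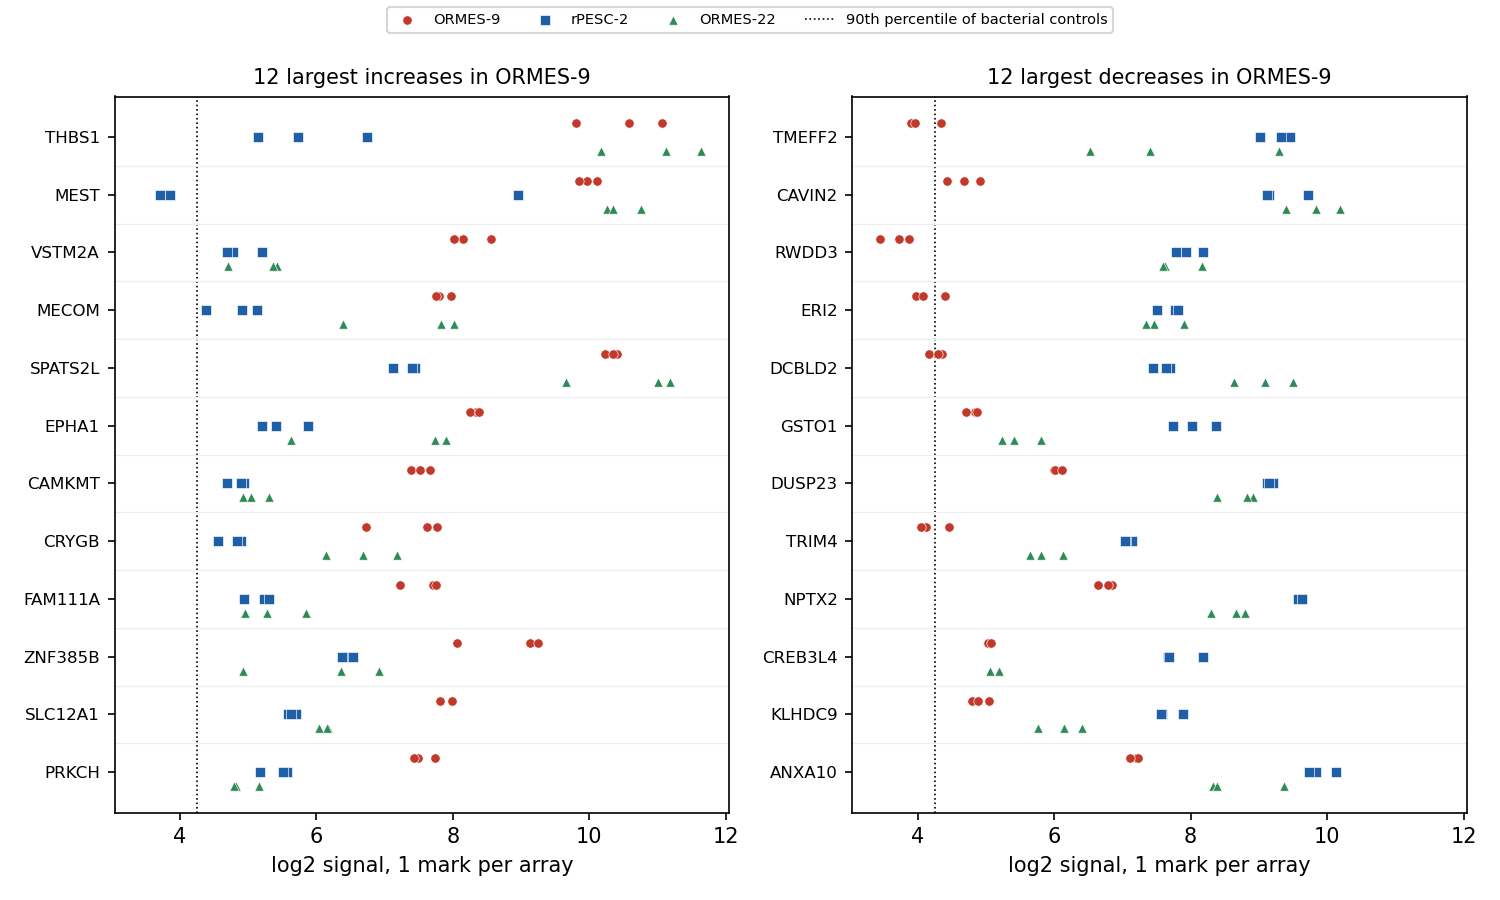
Log2 signal in every array of ORMES-9, rPESC-2 and ORMES-22 for the 12 genes with the largest increase (left) and the 12 with the largest decrease (right) in ORMES-9, with the dotted line at the background level of 4.26. Marks of ORMES-9 and rPESC-2 do not overlap in any of the 24 genes; in MEST rPESC-2 replicate B, at 8.95, lies apart from the other rPESC-2 arrays.

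Among imprinted genes read from the paternal copy, MEST was the 1 gene called between the lines. Of 29 such genes listed 16 were measured, 15 of them without a call, with a median difference of 0.04 against 0.02 over all genes. SNRPN, the standard test gene for the absence of a paternal genome, read 5.80, 5.89 and 5.88 in ORMES-9 and 5.93, 5.66 and 5.77 in rPESC-2, while the biparental ORMES-22 averaged 12.80. The values of the parthenogenetic lines overlapped, and the difference was 0.07 with a 95% interval from -0.19 to 0.33. PEG3, a zinc finger gene, averaged 3.63 and 3.77 against 6.25 in ORMES-22, PLAGL1, a zinc finger growth suppressor, 3.67 and 3.72 against 6.90, and MAGEL2 4.19 and 4.10 against 5.99. These 3 genes were at background in both lines, with differences of -0.14, -0.05 and 0.09, and their intervals ran from -0.65 to 0.37, from -1.02 to 0.92 and from -0.51 to 0.69. The SDs of PLAGL1 were 0.14 in ORMES-9 and 0.02 in rPESC-2, and its wide interval came from the ORMES-22 SD of 1.30.

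MEST, a paternally expressed gene of the alpha/beta hydrolase family, read 9.97, 10.12 and 9.85 in ORMES-9 and 3.71, 8.95 and 3.86 in rPESC-2. ORMES-9 was close to the biparental line (10.45), rPESC-2 replicates A and C were below background, and replicate B was 5.17 above their mean. Replicate B was at passage 10 and A and C at passage 16, so this deviation cannot be told apart from passage. The difference of 4.47 (SE 1.02, adjusted p = 0.025) became 6.20 (adjusted p = 5.8e-09) without rPESC-2 replicate B. Over 19 alternative settings its adjusted p ran from 5.8e-09 to 0.1. The call was lost when any other of the 6 arrays was left out, with differences from 3.57 to 4.54. The genes next to MEST on chromosome 3 were not called: CEP41 gave -0.44 (adjusted p = 0.08) and COPG2 -0.12 (adjusted p = 0.84).

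DLK1, a paternally expressed Notch-related membrane protein, did not pass the test. It read 6.07, 5.96 and 7.15 in ORMES-9 and 7.73, 7.47 and 7.80 in rPESC-2, a difference of -1.27 (SE 0.36, adjusted p = 0.067) without overlap of the arrays. NDN, of the same imprinted cluster as SNRPN and MAGEL2, was bright in all 3 ES lines and in fibroblasts (10.28, 10.77, 10.57 and 10.37). Its brightest probe set gave -0.49 (adjusted p = 0.096), another -0.79 (adjusted p = 0.046) and the dimmest -1.42 (adjusted p = 0.0003), of which only the last reached 2-fold. IGF2, a fetal growth factor, averaged 7.16 and 7.11, SGCE 4.13 and 3.82, ZFAT 6.80 and 6.78, NPAP1 5.04 and 4.87, and LRRTM1 5.13 and 5.14. The means of L3MBTL1, INPP5F, DIRAS3 and MKRN3 lay between 3.65 and 4.87 in both lines, and no difference among these 9 genes exceeded 0.31 in size.

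**Figure D4:**
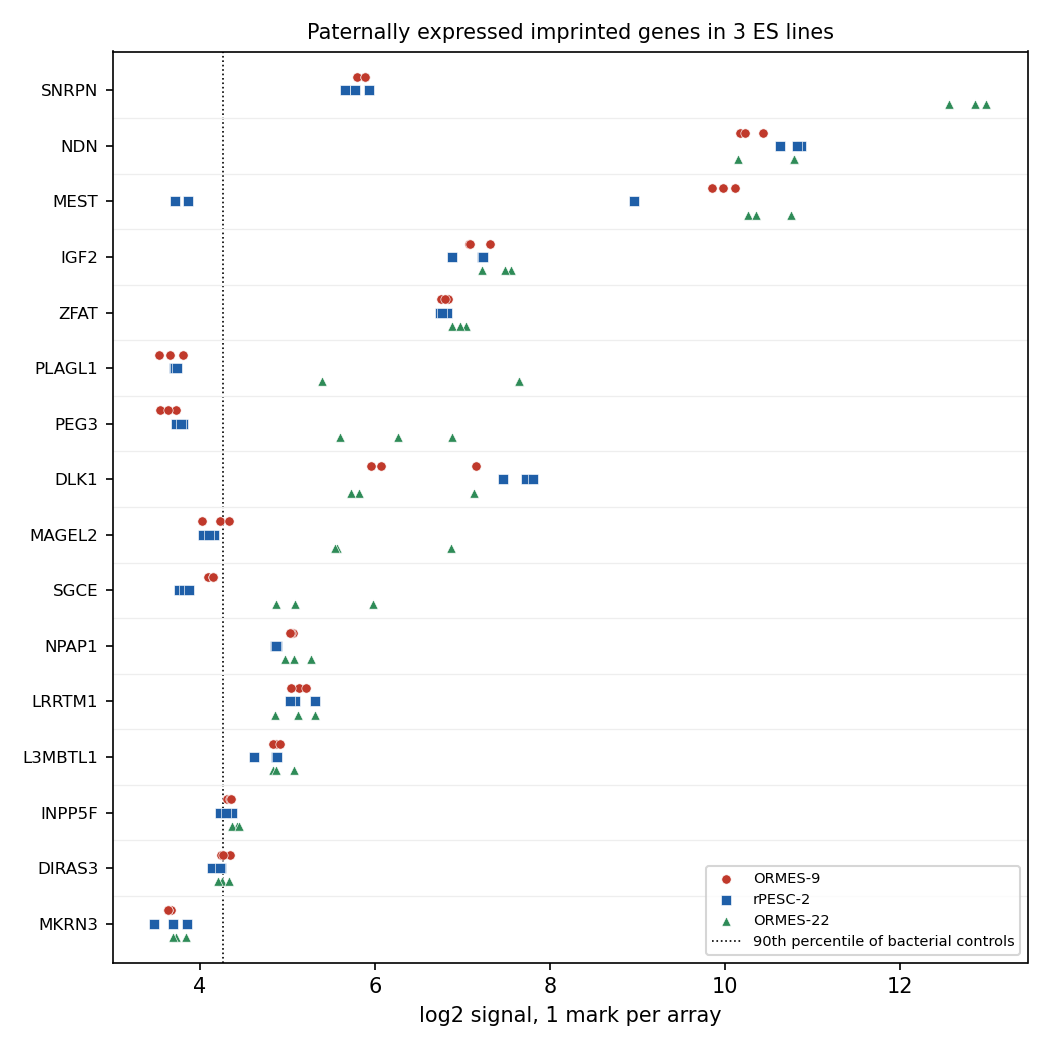
Log2 signal in every array of ORMES-9, rPESC-2 and ORMES-22 for the 16 measured imprinted genes that are read from the paternal copy, ordered by the ORMES-22 mean, with the dotted line at the background level of 4.26. SNRPN is near 5.8 in both parthenogenetic lines and above 12 in ORMES-22; MEST is the 1 gene that separates ORMES-9 from rPESC-2 by the call rule.

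Of 25 imprinted genes read from the maternal copy, 19 were measured and 0 were called by limma, with a median difference of -0.01; 5 had an unadjusted p under 0.05, and 0 were called without rPESC-2 replicate B. Over the whole array, 2830 of 12993 genes (21.8%) had an unadjusted p under 0.05, the share against which such counts of a list can be read. For counts of called genes that share was 1.65%. The lists were chosen with earlier results known, so nothing is read from a list that exceeds either share. ZNF597, a zinc finger gene, read 5.20, 5.89 and 5.59 in ORMES-9 and 4.67, 4.56 and 4.59 in rPESC-2, and GRB10, an adaptor that restrains insulin signalling, averaged 10.20 and 9.47. Both had an adjusted p under 0.05 (0.0044 and 0.0018) with differences of 0.95 and 0.73, below the 2-fold limit. PHLDA2, a growth-restraining placental gene, averaged 9.22 and 8.39 (difference 0.82, adjusted p = 0.14). H19, a long noncoding RNA, read 8.02, 7.35 and 10.85 in ORMES-9 and 8.42, 7.48 and 7.44 in rPESC-2. Its mean in ORMES-9 was carried by replicate C, the arrays overlapped, and the difference of 0.96 had an interval from -0.55 to 2.47. UBE3A, a ubiquitin ligase imprinted in neurons, averaged 10.44 and 10.53, and IGF2R 9.80 and 9.59.

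Of 21 measured genes of the pluripotency network, 1 was called higher in ORMES-9 and 0 lower, with a median difference of 0.06. That gene was PRDM14, a regulator of naive pluripotency and germ cell fate, which read 10.69, 10.48 and 9.99 in ORMES-9 and 8.76, 8.65 and 9.06 in rPESC-2 (difference 1.56, SE 0.32, adjusted p = 0.015). ORMES-22 averaged 8.82, the level of rPESC-2. The call was lost when ORMES-9 replicate A or B or rPESC-2 replicate A or B was left out. NODAL, the TGF-beta family ligand that sustains primate pluripotency, read 9.64, 9.56 and 9.13 against 8.61, 8.32 and 8.33, and its difference of 1.02 did not pass (adjusted p = 0.13).

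Lineage lists held few called genes. Of 15 measured endoderm genes 1 was called lower, CER1, a secreted inhibitor of Nodal, BMP and WNT ligands, with 8.30, 6.76 and 7.75 in ORMES-9 and 8.95, 8.53 and 8.92 in rPESC-2. The arrays did not overlap, but the difference of -1.19 (adjusted p = 0.04) lost its call without any 1 of 5 arrays, rPESC-2 replicate B among them, and kept it only without ORMES-9 replicate A. The 12 mesoderm, 8 neuroectoderm, 16 trophoblast and 12 germ cell genes measured had 0 calls by limma, with 0, 1, 2 and 3 genes at an unadjusted p under 0.05. The largest differences in these lists were those of MEF2C (0.40), TUBB3 (0.75), GATA3 (0.79) and SOHLH2 (-0.78). Of the 22 HOX genes measured 0 were called with all arrays and 2 had an unadjusted p under 0.05. HOXD13 gave -0.82 at its brightest probe set, and -1.08 with a call when rPESC-2 replicate B was left out. Its other probe sets gave -0.14 and -0.19 with all arrays. Without that replicate they gave -0.25 and -0.22, and neither was called in either fit.

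Secreted inhibitors accounted for the called genes of the WNT list. WNT ligands act through Frizzled receptors, and the Dickkopf proteins block the coreceptors LRP5 and LRP6. Of 31 measured genes, 2 were lower in ORMES-9 and 0 higher (6.45% called, against 1.65% of all genes), with a median difference of -0.00. DKK4 read 5.96, 5.71 and 5.75 in ORMES-9 and 6.54, 7.78 and 7.32 in rPESC-2 (difference -1.41, SE 0.24, adjusted p = 0.0048). DKK1 read 7.55, 6.91 and 7.36 against 8.28, 8.23 and 8.54 (difference -1.07, SE 0.18, adjusted p = 0.0045). Both genes were without overlap, ORMES-22 was lower than either line (5.44 and 5.16), and the DKK1 call was lost without ORMES-9 replicate B or rPESC-2 replicate C. The ligand WNT3 averaged 6.72 and 5.76, a difference of 0.96 (adjusted p = 0.0044) under the 2-fold limit. The receptor FZD7 averaged 11.14 and 11.77 (-0.62, adjusted p = 0.00064), and SP5, a direct WNT target, gave -1.09 (adjusted p = 0.062).

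Of 31 measured genes of TGF-beta, Nodal and BMP signalling, CER1 was the 1 called, and the list median was 0.10. ID3, a BMP target, averaged 11.78 and 10.76, and its difference of 1.02 did not pass (adjusted p = 0.2). Among 28 measured genes of FGF and receptor kinase signalling, EPHA1 was higher, though not by its probe set that was brightest in these lines. IGFBP2, a binding protein for insulin-like growth factors, was lower. IGFBP2 read 11.69, 11.24 and 11.84 against 12.36, 13.12 and 12.76, a difference of -1.16 (SE 0.29, adjusted p = 0.038). Its arrays did not overlap, and its call was lost without any 1 array other than rPESC-2 replicate A. SPRY4, a feedback inhibitor of FGF signalling, gave 1.03 (adjusted p = 0.18) and EFNA1, an ephrin ligand, averaged 10.38 and 9.56 (difference 0.82, adjusted p = 0.0061).

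Genes of the major histocompatibility complex (MHC) class I, which present peptides at the cell surface, gave both called genes of the antigen presentation list (18 measured, 0 higher, 2 lower, median difference 0.08). The share called was 11.1%, against 1.65% of all genes. MAMU-AG, a nonclassical class I gene of the placenta, read 7.71, 7.61 and 7.42 in ORMES-9 and 9.99, 10.15 and 9.72 in rPESC-2 (difference -2.37, SE 0.13, adjusted p = 7.4e-07), and a second probe set was lower by -1.67, also called. MAMU-B, a classical class I gene, read 10.00, 9.85 and 9.97 against 11.30, 11.55 and 11.23 (difference -1.42, SE 0.13, adjusted p = 5.4e-05), while its other probe set gave 0.11 and was not called. Macaque class I genes exist in many near-identical copies that share probes, so the gene behind each of these signals is uncertain. The shared light chain B2M averaged 12.52 and 12.25, and MAMU-A 8.89 and 8.74. Neither was called, nor were the 20 measured genes of the interferon response by their brightest probe sets, of which 3 had an unadjusted p under 0.05. IFITM1, an interferon-induced membrane protein, came nearest, with 0.78 (adjusted p = 0.004) at its brightest probe set and 1.30, called, at another.

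Single genes stood out in the metabolic lists. TYMS, which makes thymidylate for DNA synthesis, read 9.20, 9.43 and 9.30 in ORMES-9 and 10.70, 10.79 and 10.66 in rPESC-2 (difference -1.41, SE 0.08, adjusted p = 7.4e-07). ORMES-22 and fibroblasts were at the level of rPESC-2 (10.44 and 10.39), a second bright TYMS probe set gave -1.59, also called, and a dim one gave -0.01 and was not called. TYMS was the 1 gene called among 9 measured genes of deoxynucleotide metabolism, and 0 of 26 cell cycle genes were called, with a median difference of -0.00. Of these 26, 6 had an unadjusted p under 0.05, near the 21.8% of all genes, and among them was CDKN2A, the INK4a/ARF tumour suppressor locus, with 8.06, 7.99 and 8.17 against 6.97, 7.14 and 6.22 (difference 1.30, adjusted p = 0.082). Another CDKN2A probe set, above background with 4.93 and 4.96, gave -0.03, and a dim one gave 0.01. Neither was called.

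SLC16A3, the lactate exporter MCT4, was the 1 called gene of 18 measured in glycolysis. It read 6.87, 6.46 and 6.65 against 7.79, 8.97 and 8.36 (difference -1.71, SE 0.31, adjusted p = 0.0071), a second probe set was lower by -2.79, also called, and a dimmer one gave -0.17 and was not called. GPI, a glycolytic isomerase, averaged 10.64 and 11.51 (difference -0.87, adjusted p = 0.00088). PFKP, the platelet phosphofructokinase, read 10.09, 10.34 and 9.98 in ORMES-9 and 6.26, 10.46 and 7.69 in rPESC-2, so replicate B overlapped ORMES-9; the difference of 2.00 was not called (adjusted p = 0.26), and without that array it was 3.16 and called (adjusted p = 0.015). Over 19 settings the adjusted p of PFKP ran from 0.015 to 0.63. GSTO1 was the 1 called gene among 24 of redox and detoxification. The microsomal transferases MGST1, MGST2 and MGST3 gave 0.59, 0.53 and 0.84, each with an adjusted p under 0.05 and below 2-fold.

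Among 16 measured genes of lysosomes and lipid handling, LIPA, the lysosomal acid lipase, was called higher with 8.22, 8.10 and 8.20 in ORMES-9 and 6.05, 7.04 and 6.08 in rPESC-2 (difference 1.78, SE 0.34, adjusted p = 0.0095). ORMES-22 averaged 4.97, below both lines. The median difference of this list, 0.27, was the highest of the 24 lists, and 9 of its 16 members had an unadjusted p under 0.05, against 21.8% of all genes. The list was chosen with earlier results of these data known, so nothing is read from its rank or its share. RAB25, an epithelial GTPase of recycling endosomes, was the 1 called gene of 25 epithelial junction genes, with 9.38, 9.71 and 9.16 against 8.13, 7.73 and 8.13 (difference 1.42, SE 0.27, adjusted p = 0.0087). CLDN7, a tight junction protein, averaged 7.55 and 8.37, a difference of -0.82 in the other direction (adjusted p = 0.0027).

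The lists of DNA methylation and imprint maintenance (15 measured), apoptosis and p53 (15) and X inactivation (2) had 0 calls by limma, with 5, 4 and 0 genes at an unadjusted p under 0.05, where the share over all genes was 21.8%. TET1, which oxidises methylcytosine, gave -0.997 (adjusted p = 0.15), and NLRP7, a maternal-effect gene, -0.68 (adjusted p = 0.038). MDM2, the p53 antagonist, averaged 5.15 and 5.79 (difference -0.64, adjusted p = 0.042). In all, 15 of 436 measured genes of the 24 lists were called (3.44%, against 1.65% of all genes; the lists were chosen with earlier results known, so nothing is read from this), and 200 called genes were in none of the lists.

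**Figure D5:**
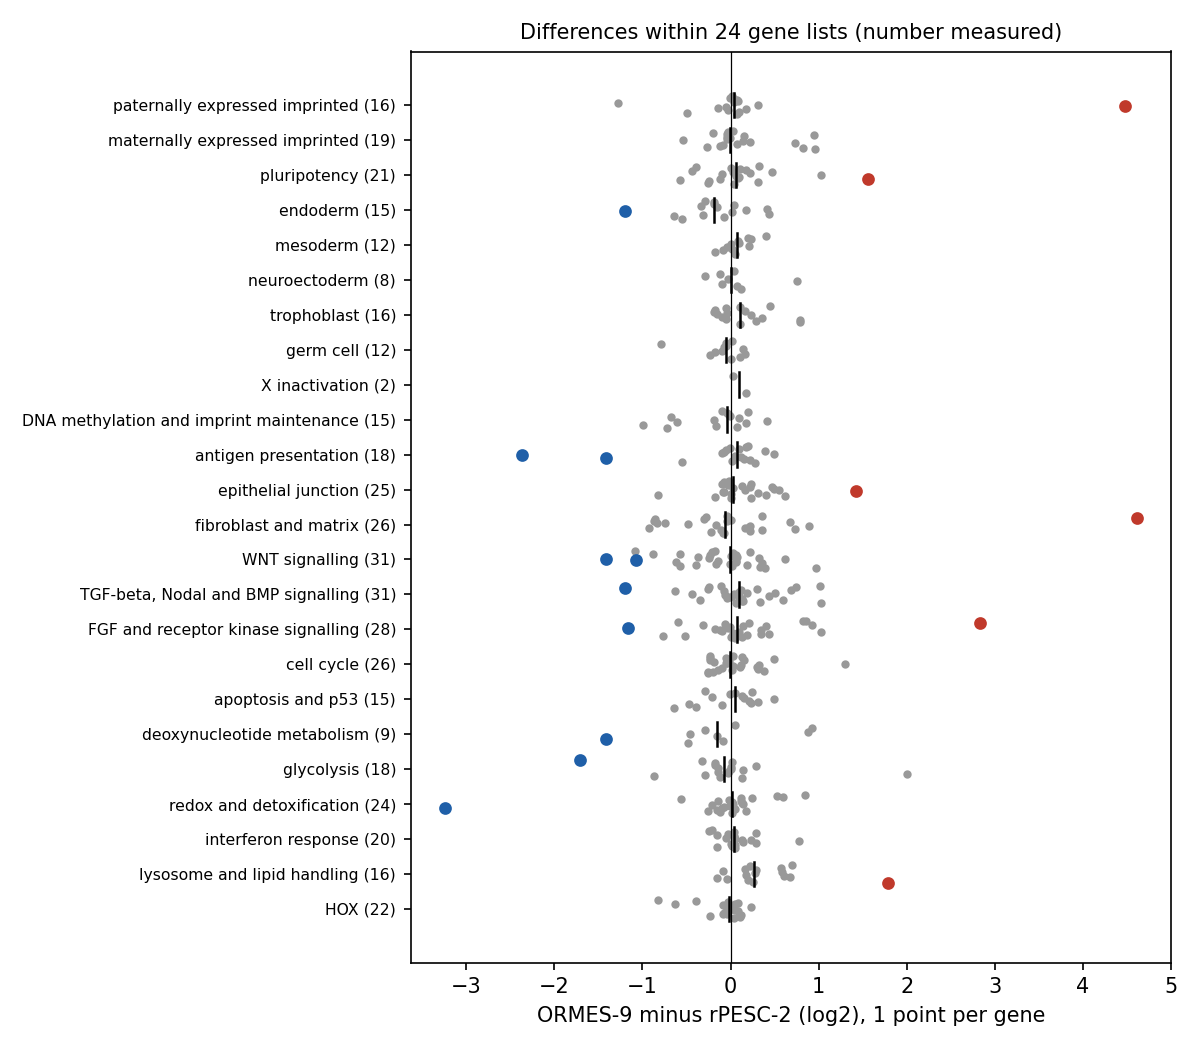
Difference ORMES-9 minus rPESC-2 (log2) of each measured gene in 24 lists, 1 point per gene, with the number measured in brackets and a black bar at the list median. Genes called higher are red and genes called lower blue; 11 lists hold none, and the medians lie between -0.19 and 0.27.

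The levels of the biparental line divided both directions of change. Of the 101 genes higher in ORMES-9, ORMES-22 was nearer to rPESC-2 in 62 and nearer to ORMES-9 in 39. Of the 114 genes lower in ORMES-9, ORMES-22 was nearer to rPESC-2 in 63 and to ORMES-9 in 51.

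Called genes were spread over the chromosomes. Of 12804 genes with a chromosome in a RefSeq gene table, 212 were called, and the share per chromosome, over the 20 autosomes and X, ran from 0.844% on chromosome 14 to 2.97% on chromosome 5. The median difference of the genes of a chromosome that were above background stayed between 0.001 and 0.057 on the autosomes and X, against 0.025 over all placed genes. Chromosome Y had 2 such genes, with a median of -0.08. Called genes that were direct neighbours among the measured genes and moved the same way formed 4 pairs. CAVIN2 and TMEFF2 on chromosome 12 were both low in ORMES-9, and the genes on either side, NABP1 (0.25) and STK17B (0.28), were not called. On chromosome 20 ERI2 was flanked by REXO5, an RNA exonuclease gene, with 5.27, 5.24 and 5.55 against 7.54, 7.16 and 7.14 (difference -1.93, SE 0.21). The genes beyond this pair, ACSM3 (0.05) and DCUN1D3 (0.28), were not called. The other pairs were TESC with FBXO21 on chromosome 11, lower by -1.40 and -1.10, and ATP8A2 with SHISA2 on chromosome 17, higher by 1.74 and 1.31.

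Probe sets of 1 gene did not always give the same answer. Of the 215 called genes, 98 had another probe set above background, 154 such probe sets in all. Of these, 49 were called in the same direction, 80 had the same sign without a call, 25 had the opposite sign without a call, and 0 were called in the opposite direction. Conversely, 94 other probe sets of 89 genes were called where the brightest of the gene was not. Of these 94, 28 had the opposite sign to the brightest probe set of their gene. SF3A1, a splicing factor gene, read 6.58, 7.18 and 6.82 in ORMES-9 and 3.26, 3.48 and 3.46 in rPESC-2 at one probe set (difference 3.46), while its brightest gave 0.46. INTS5, of the Integrator complex, gave 3.16 at one probe set and 0.46 at its brightest. OPA1, a GTPase of mitochondrial fusion, read 4.97, 4.75 and 4.81 against 7.84, 7.84 and 7.69 at one probe set (difference -2.95), while its brightest gave 0.09. RPL13, a ribosomal protein gene, gave 2.48 at one probe set and -0.23 at its brightest. These 4 genes were chosen as those with the largest such differences, after their values were seen. BCAT1, also named after its values were seen, was called in both directions. It gave -1.78 at one probe set (adjusted p = 0.0035) and 1.63 at another (adjusted p = 2.1e-05), while its brightest gave -0.17. Whether such a probe set reports a transcript form, the amount of transcript or the match of its probes to the alleles of a line was not tested. Of the 650 called probe sets, 264 had no gene symbol, 24 had only a provisional LOC symbol and 4 had several symbols. Among them were an unnamed probe set with 9.34, 9.65 and 9.70 in ORMES-9 and 3.02, 3.30 and 3.22 in rPESC-2 (difference 6.38), and LOC699038 with 4.70, 4.44 and 5.08 against 10.91, 10.90 and 10.69 (difference -6.09).

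Within each line a small number of genes set 1 array apart. In ORMES-9, 15, 5 and 29 genes were at least 2-fold above the mean of the other 2 arrays in replicates A, B and C, and 16, 22 and 1 at least 2-fold below. In rPESC-2 the numbers were 30, 14 and 6 above and 5, 9 and 35 below. Replicate B of rPESC-2 was therefore not the array with the most such genes. Its largest upward deviations were MEST 5.17, ZNF22 3.66, PFKP 3.48 and FAIM 2.20 above the mean of replicates A and C. Its largest downward deviations were S100A6 -2.03, FOS -1.87, NFIX -1.67, ZFHX3 -1.64 and EIF5A -1.27. In all of these but FOS, replicate A was the array apart, as for S100A6 with 11.78, 8.04 and 8.38. Replicate B was at passage 10 and A and C at passage 16, so deviations of B cannot be told apart from passage. FAIM, an inhibitor of Fas-mediated apoptosis, read 5.02, 7.04 and 4.68 in rPESC-2 and 6.50, 6.66 and 6.02 in ORMES-9. The arrays overlapped, and its difference of 0.81 (adjusted p = 0.45) became 1.54 and called without replicate B. Another FAIM probe set gave 0.19 (adjusted p = 0.93), and 0.9995 without replicate B (adjusted p = 0.018). It was just under the 2-fold limit there and was not called in either fit.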

How the data were processed

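RNA of each sample was labelled by a one-cycle protocol and read on 1 Affymetrix array, per the labels' protocols. The values are log2 signals per probe set as deposited. Per the submitters' processing notes RMA was used; its software and probe set definition are not given in the sources used here. RMA equalises the distributions of arrays, so a shift shared by most genes would be lost, and differences near background are understated. The 99 control features were left out. Symbols came from the platform annotation (24956 probe sets with 1 symbol, 361 with several, 27449 with none), of which 24616 matched RefSeq genes on T2T-MMU8v2.0, a table used for names, chromosomes and gene order only. Provisional LOC symbols were not used, and each gene was read by its brightest probe set over the 12 arrays.

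Group means of all 12 arrays were fitted by lmFit and eBayes of limma 3.58.1 under R 4.3.3 (8 residual and 3.69 prior degrees of freedom, two-sided, Benjamini-Hochberg over 52766 probe sets). In simulated data for this comparison the call rule passed 50.7% of probe sets changed by 1 log2 unit and 98.5% of those changed by 2. A change of 1 log2 unit lies at the 2-fold limit itself, so the 50.7% reflects that limit and does not measure the power of the test. Named genes were the 12 largest increases and decreases, the measured paternally expressed imprinted genes, up to 4 called genes per list (or the 1 with the largest difference) and genes at background in 1 line. Genes with a difference short of the call, the probe sets other than the brightest, the flanking genes and the mitochondrial probe sets were added after their values were seen. The members and lists were chosen with earlier results of these data known.

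The replicate letters were not used as pairs in the main fit. Deviations of same-lettered arrays correlated at -0.278, -0.0269 and 0.127, and those of different letters from -0.250 to 0.256. Deviations from a line's own mean cancel within the line, so these values cannot decide whether the samples were paired. Alternatives were other sets of arrays, passage as a covariate, the replicate block, other scalings, variance models, filters and fold limits, and each array left out. The number of arrays limits the precision.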

Additional observations from a re-analysis of the deposited data

How the results depend on the processing

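The count of 650 probe sets and 215 genes stayed within 1.5 times under other sets of arrays, passage as a covariate, a filter on dim probe sets, other scalings, other variance models and each array left out (542 to 714 probe sets, 173 to 248 genes). With the replicate block 639 probe sets and 208 genes were called, and among the 35 called genes named by the rule IGFBP2 and CER1 lost their calls under it. The counts moved with the fold limit: with no minimum 2753 probe sets (54.3% of them higher in ORMES-9) and 1003 genes (59.2% higher) passed, and at 3-fold 209 and 69. With 1 probe set per gene tested, 223 were called, which follows from the smaller number tested. Of the 35 genes, 0 changed direction under any alternative. Besides the losses named with the genes, MEST, PRDM14, IGFBP2 and CER1 lost their calls in the fit of the 9 ES arrays, MEST and CER1 in that of the 6 arrays compared, and PRDM14, RAB25, IGFBP2 and CER1 with passage as a covariate; MAMU-B and TRIM4 lost theirs when all probe sets of a gene were averaged. The cause was not tested. Leaving out ORMES-22 replicate A was added after seeing the data and gave 714 probe sets. Signals near background limit what can be said of low genes.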
